A study of Mus musculus with 12 samples.

Results

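The levels of 10 transcription factors of IL-4 polarization, Irf4, Egr2, Klf4, Myc, Bhlhe41, Batf, Batf3, Atf3, Cebpb and Pparg, were examined by RNA sequencing in macrophages derived from the bone marrow of wild-type (WT) and miR-210 knockout (KO) mice. The genes were taken by name, by matching symbols to the Ensembl identifiers of the count tables, and all 10 were found among the 56941 genes listed there. All 10 passed the filter on low counts in each comparison.

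Interleukin-4 (IL-4) binds its receptor on the macrophage surface and activates the factor STAT6, which enters the nucleus and turns on a second layer of transcription factors together with markers of alternative (M2) activation such as Arg1, Retnla, Chil3 and Mrc1. Irf4 belongs to the interferon regulatory factors, Egr2 and Klf4 to the zinc finger factors, and Myc and Bhlhe41 to the basic helix-loop-helix factors, of which Myc activates and Bhlhe41 represses genes with an E-box. Batf, Batf3, Atf3 and Cebpb are basic leucine zipper factors that bind DNA as dimers, and Pparg is a nuclear receptor for fatty acids that pairs with RXR and drives genes of lipid uptake and storage.

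The WT and KO groups came from C57Bl/6J mice, and the authors bred both from mice heterozygous for a deletion of miR-210. That line goes back to a cross of floxed miR-210 mice with a Gata-1 Cre line. Monocytes were purified from bone marrow by removal of the other cell types and cultured for 7 days in medium with L929-conditioned supernatant, a source of M-CSF. M2 cells then received IL-4 at 20 ng/ml for 72 hours, and M0 cells were kept without it. Each of the 4 groups, WT M0, KO M0, WT M2 and KO M2, had 3 libraries. The sources do not say whether the 3 libraries of a group came from separate mice, so the p-values measure the spread between libraries, which may be technical. From the labels, batch and group cannot be told apart.

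Between 7930525 and 10167695 reads per library were assigned to genes. The targeted gene Mir210 had 1, 3 and 5 counts in WT M0, 1, 2 and 1 counts in WT M2 and 0 counts in the 6 KO libraries. These libraries were not made for small RNA, and the counts are few. The 6 macrophage markers Adgre1, Csf1r, Cd68, Itgam, Cd14 and Fcgr1 summed to between 3502 and 4362 CPM in every library, where CPM is the count of a gene scaled to the normalized size of its library. The markers of neutrophils, T and NK cells, B cells, erythroid cells, mast cells and fibroblasts summed to at most 3.89 CPM per list, with Ly6g, Cd3e, Ncr1, Ms4a1 and Fcer1a at 0 in all 12 libraries. KO M0 library 3 stood apart from the other 2 KO M0 libraries in early response genes, which cells switch on within minutes of a stimulus. Egr1 was at 265 CPM there, against 3.22 and 2.94 CPM in KO M0 libraries 1 and 2, and Fos at 909 CPM against 82.0 and 80.0 CPM. The changes of the 10 factors that include this library are also given without it, as are the list counts that then differ.

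Per kilobase of exon, the scale on which levels of different genes were compared, Cebpb was the most abundant of the 10 in WT M0 (210 ± 27 CPM per kb, mean ± SD, n = 3), followed by Atf3 (60.1 ± 14), Bhlhe41 (23.8 ± 1.4), Batf (11.3 ± 1.4) and Egr2 (8.19 ± 1.4). The libraries of neighbours in this order did not overlap down to Egr2 and Batf3. The other 5 genes lay between 1.00 and 3.11 CPM per kb, where Batf3 and Pparg overlapped, as did Klf4 with Myc and Myc with Irf4. Cebpb, Atf3 and Egr2 led in WT M2 (374 ± 19, 205 ± 14 and 140 ± 8.2 CPM per kb), with no overlap between neighbours down to Irf4. Irf4, Pparg, Myc, Klf4, Batf and Bhlhe41 formed the lower end of that order, from 12.3 ± 2.1 to 7.61 ± 0.92 CPM per kb, and each neighbour among them overlapped the next. Egr2 thus moved from the fifth place to the third, and Bhlhe41 from the third to the last. In KO M0 the order was that of WT M0 except that Myc (2.7 ± 0.53) stood above Pparg (2.06 ± 0.055) and Klf4 (1.3 ± 0.55), with no overlap between these 3, while Batf overlapped Egr2 and Batf3 overlapped Myc. The same 3 genes led in KO M2, at 344 ± 13, 185 ± 5.1 and 125 ± 4.8 CPM per kb.

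**Figure D1:**
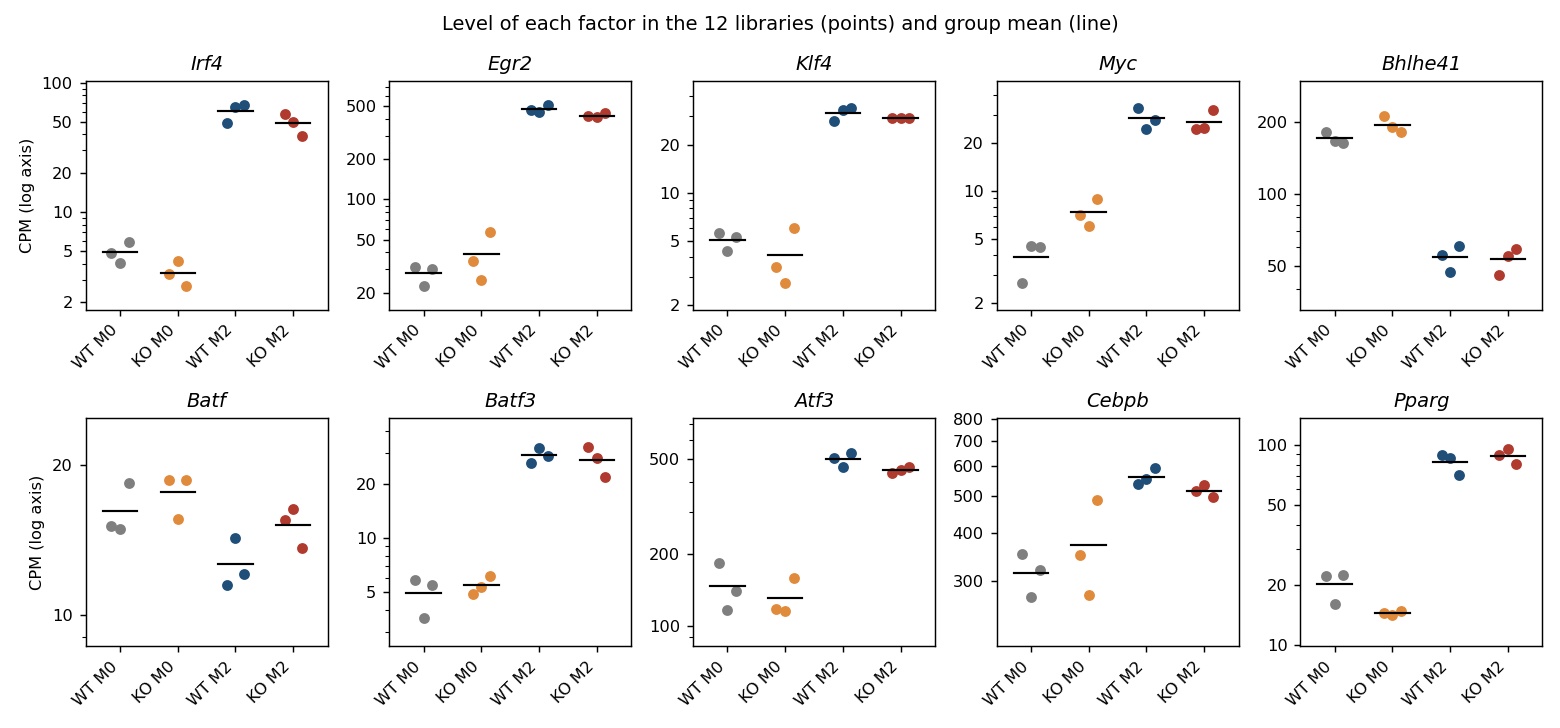
Level of the 10 factors in CPM on a log axis whose range differs between panels, with 1 point per library and a line at the mean of the 3 libraries of each group. The M2 libraries of 8 factors lay above their M0 libraries in both genotypes, Bhlhe41 lay below, and the groups of Batf overlapped in KO.

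The sequence just upstream of the genes was read from RefSeq promoters of the GRCm38.p6 build, 250 bases before to 50 after each start, which held 15 promoters of 9 of the 10 genes, all but Myc, among 32851 promoters in all. Of these 15, 13 had a GC content above the median of 52.7% over all promoters. The E-box CACGTG, the letters that Myc and Bhlhe41 are known to bind with their partners, was found on at least 1 promoter of 4 genes, Egr2, Klf4, Batf3 and Bhlhe41, and on 7.15% of all promoters. The stretches around it are shown because 3 of these genes rose with IL-4 and Bhlhe41 fell. Some genes have more than 1 promoter, so the count of genes and the share of promoters are unlike measures. Capitals mark the E-box, together with an EGR site (CGCCCCCGC, on the other strand GCGGGGGCG, on 2.91% of promoters) in Klf4 and a STAT site with 3 bases in the middle (TTCNNNGAA, on 8.30% of promoters) in Batf3.
Egr2, chr10:67535452-67535497, + strand: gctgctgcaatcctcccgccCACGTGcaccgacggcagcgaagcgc
Klf4, chr4:55532632-55532689, - strand: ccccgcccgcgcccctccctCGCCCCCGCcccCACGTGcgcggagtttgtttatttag
Batf3, chr1:191098164-191098203, + strand: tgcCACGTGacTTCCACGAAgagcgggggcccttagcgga
Bhlhe41, chr6:145865548-145865593, - strand: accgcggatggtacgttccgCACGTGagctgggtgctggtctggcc

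Other starts of Egr2 lie further along the gene. The windows of 4 of them, in the same GRCm38.p6 build, hold a CArG box, the site of serum response factor, which is known for early response genes such as Egr1 and Fos, and which was found on 1.63% of all promoters and, of the 9 genes searched, on those of Egr2 alone. The box shown is shared by 3 of these overlapping windows. The search for it was added after the sequences had been seen.
Egr2, chr10:67537777-67537826, + strand: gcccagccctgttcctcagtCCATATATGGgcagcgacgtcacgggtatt
Of the other motifs searched on both strands, the TATA box TATAAA was found for Cebpb, Irf4 and Pparg (13.6% of all promoters), the C/EBP site TTGCNNAA for Pparg (10.8%) and the IRF repeat GAAANNGAA for Egr2 (8.56%). The TATAAA match of Irf4 began at base -26 from the start, that of Pparg at -29 on the opposite strand. The match of Cebpb began at base 22, after the start. The STAT6 site with 4 bases in the middle, the EGR site GCGTGGGCG, the CRE TGACGTCA and the AP-1 site TGANTCA, on 6.95%, 0.612%, 1.79% and 7.81% of all promoters, were not found in these windows. Here too, genes with a match and shares of promoters are unlike measures. A match of letters is a description of the window and shows no binding.

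With IL-4, 8 of the 10 factors rose in WT macrophages, namely Egr2, Irf4, Myc, Klf4, Batf3, Pparg, Atf3 and Cebpb, and 2 fell, Bhlhe41 and Batf. Calls required an adjusted p under 0.05 from the edgeR quasi-likelihood test, adjusted by Benjamini-Hochberg over every gene tested, together with a change of more than 1.2-fold in either direction. Of 14266 genes tested in WT, 22.1% were called higher and 20.9% lower. In KO macrophages the same 8 factors were called higher and Bhlhe41 lower, while Batf was not called, against 17.4% of 14331 genes called higher and 16.4% lower. The 2 comparisons share no library. The median log2 fold change of the 10 factors was 2.3 in WT and 2.1 in KO, against -0.0012 and -0.0078 over all genes tested. Regardless of direction, the median size was 2.3 and 2.1 for the factors, against 0.298 and 0.259 over all genes. The factors were chosen as factors of IL-4 polarization with earlier results of these data known. Their contrast with all genes is therefore a description and not a test. Without KO M0 library 3 the same 9 factors were called in KO. The log2 fold changes were then 3.66 for Irf4, 2.03 for Myc, 2.41 for Batf3, 2.63 for Pparg, 1.94 for Atf3, -1.92 for Bhlhe41 and -0.185 for Batf. In bulk RNA, more cells of a type and more RNA per cell cannot be told apart, and this holds for each value given here.

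**Figure D2:**
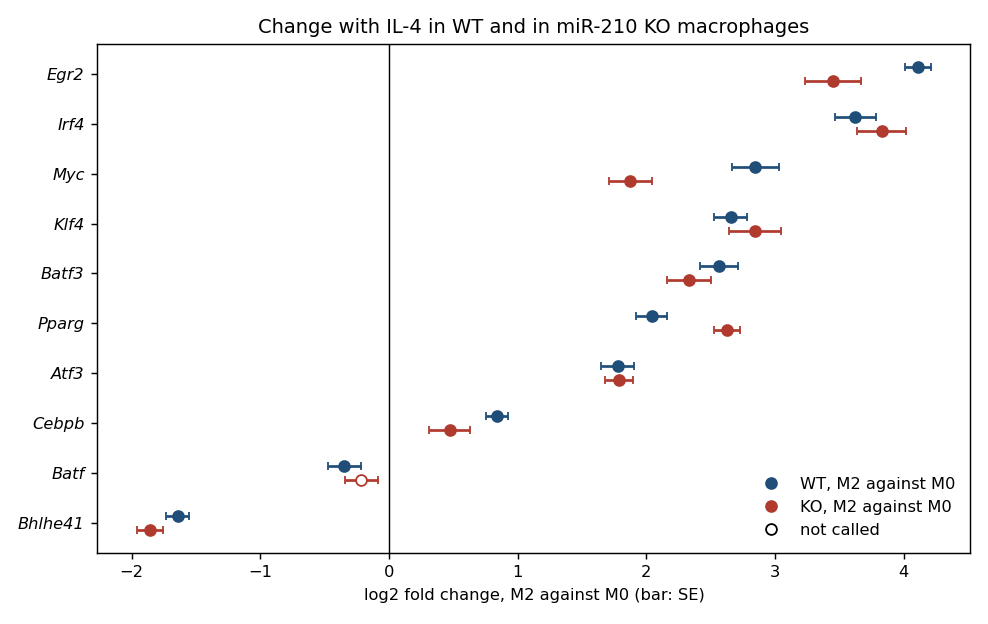
Change of the 10 factors with IL-4 as log2 fold change of M2 against M0 in WT (blue) and KO (red), with the SE as a bar and an open circle where the gene was not called. The changes ran from -1.64 to 4.11 in WT and from -1.86 to 3.83 in KO.

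Irf4 (ENSMUSG00000021356, chr13:30933209-30950959 of GRCm39, + strand) encodes an interferon regulatory factor that is induced by IL-4 and is known for its part in M2 genes. It was at 4.82, 4.02 and 5.88 CPM in WT M0 and at 48.8, 64.9 and 67.7 CPM in WT M2. In KO it was at 3.33, 4.18 and 2.68 CPM in M0 and at 57.5, 49.8 and 38.5 CPM in M2. In both genotypes every M2 library was therefore above every M0 library, by a log2 fold change of 3.62 ± 0.16 (SE) in WT (edgeR, adjusted p = 6.9e-10) and of 3.83 ± 0.19 in KO (adjusted p = 8.2e-09). The counts behind the M0 values were low, 27 to 58 per library. The gene whose pattern over the 12 libraries was closest to it, by the root mean square difference of centred log2 CPM among 11383 protein-coding genes, was Ltb4r1, a receptor for leukotriene B4 (0.235 log2 units). Of the 7 tested relatives of Irf4, Irf2 rose in WT (log2 fold change 0.30 ± 0.06) and 3 relatives fell, Irf7, a factor of interferon production (-3.08 ± 0.13), Irf8, a myeloid lineage factor (-0.78 ± 0.07), and Irf9, a factor of interferon signalling (-0.58 ± 0.08). In KO the same 3 fell, and Irf1 was called higher beside Irf2. Without KO M0 library 3, Irf1 was not called. The list had a median log2 fold change of -0.196 in WT and -0.162 in KO.

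Egr2 (ENSMUSG00000037868, chr10:67371305-67378018 of GRCm39, + strand), an early growth response factor that is known to act downstream of STAT6, showed the largest change of the 10 factors in WT. Its libraries were at 31.2, 22.6 and 29.9 CPM in WT M0 and at 470, 455 and 509 CPM in WT M2, a rise of 4.11 ± 0.10 on the log2 scale (edgeR, adjusted p = 5.3e-12), and it ranked 196 among 14266 genes ordered from the highest change down. In KO it was at 34.7, 24.9 and 57.4 CPM in M0 and at 422, 412 and 444 CPM in M2. The M0 libraries of KO thus spread more widely than those of WT, with library 3 the highest, and the rise was 3.45 ± 0.22 (adjusted p = 7.5e-08), or 3.83 ± 0.142 without that library. The nearest pattern was that of Gata2 (0.220 log2 units), a factor of blood progenitors and mast cells, which was at mean levels of 0 CPM in WT M0, 0.0663 in KO M0, 4.14 in WT M2 and 3.15 in KO M2. The log2 values of Gata2 in M0, and so this match, rest on a count of 2 added before the log. Of 3 tested relatives, Nab2, a corepressor that binds EGR factors, rose in WT (1.25 ± 0.08) and in KO (1.10 ± 0.10). Its relative Nab1 fell in both (-0.90 ± 0.06 in WT, -1.03 ± 0.08 in KO). Egr1 was not called in either genotype (log2 fold change -0.43 ± 0.2 in WT, -2.97 ± 1.2 in KO), and without KO M0 library 3 it was called higher in KO (1.89 ± 0.21).

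Klf4 (ENSMUSG00000003032, chr4:55527139-55532528 of GRCm39, - strand) encodes a Krüppel-like factor that is known to cooperate with STAT6. In WT it was at 5.58, 4.33 and 5.27 CPM in M0 and at 28.1, 33.0 and 33.8 CPM in M2. In KO the libraries were at 3.45, 2.75 and 6.06 CPM in M0 and at 29.5, 29.3 and 29.5 CPM in M2. The groups did not overlap in either genotype, and the log2 fold change was 2.66 ± 0.13 in WT (edgeR, adjusted p = 2.3e-09) and 2.84 ± 0.20 in KO (adjusted p = 2.5e-07), or 3.24 ± 0.167 in KO without M0 library 3. Of its 50-base stretches, 2.5% also occur in Gm48640 or Gm48923, so a small share of its reads may be split with them. The closest pattern was that of Ccr3, a chemokine receptor (0.224 log2 units). Of 9 tested relatives, 4 were called higher and 2 lower in WT, and 3 higher and 4 lower in KO, or 3 higher and 3 lower without KO M0 library 3, where Klf6 was not called (adjusted p = 0.078). Klf9, a target of glucocorticoid and thyroid hormone receptors, rose by 3.11 ± 0.13 in WT and 2.98 ± 0.09 in KO, beside 2.66 and 2.84 for Klf4. Klf10, which responds to TGF-beta, rose by 0.81 ± 0.09 in WT, whereas Klf3 (-0.69 ± 0.06) and Klf2 (-0.655 ± 0.07), a factor that restrains inflammatory activation, fell. Klf11 was called higher in WT (0.41 ± 0.13) and lower in KO (-0.51 ± 0.17), and the difference between these changes was not called (adjusted p = 0.14).

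Myc (ENSMUSG00000022346, chr15:61857227-61862223 of GRCm39, + strand) drives genes of growth and ribosome production and is also known as a marker of M2 cells. It was at 2.67, 4.54 and 4.46 CPM in WT M0 and at 33.1, 24.4 and 28.0 CPM in WT M2. The KO libraries held it at 7.11, 6.08 and 8.95 CPM in M0 and at 24.3, 24.8 and 32.2 CPM in M2. The M2 levels of the genotypes overlapped and the M0 levels did not, and the log2 fold change with IL-4 was 2.85 ± 0.18 in WT (edgeR, adjusted p = 2.3e-08) and 1.88 ± 0.17 in KO (adjusted p = 1.8e-06). The counts behind the M0 values were 21 to 90 per library. Its nearest pattern was that of Uck2, an enzyme of pyrimidine salvage (0.244 log2 units). Within the MYC-MAX network, 1 of 9 tested genes was called higher and 1 lower in WT. Mxd4, a repressor that competes with Myc for Max, rose (1.75 ± 0.08), and Mxd1, a repressor of the same family, fell (-1.32 ± 0.15). Both were called in the same direction in KO, at 1.88 ± 0.10 and -0.55 ± 0.12, where Mlxip was called too. Mlxip was not called without KO M0 library 3 (0.377 ± 0.16, adjusted p = 0.095) and Mxi1, another Max partner, was called higher (0.58 ± 0.18, adjusted p = 0.026). Of 10 MYC target genes, 5 were called higher in WT, among them Srm, an enzyme of polyamine synthesis (0.59 ± 0.10), and Nop58, a ribosomal RNA processing protein (0.54 ± 0.09), and none lower. In KO none of the 10 was called higher and Odc1, the entry enzyme of polyamine synthesis, was called lower (-1.41 ± 0.46). Odc1 was at 54.9 CPM in KO M0 library 3 against 13.1 and 14.1 CPM in the other KO M0 libraries, and was not called without it (-0.42 ± 0.17, adjusted p = 0.083). The median log2 fold change of the MYC targets was 0.274 in WT and 0.047 in KO. No MYC target was called between the genotypes in M0 or M2, or in the difference between the changes with IL-4.

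Bhlhe41 (ENSMUSG00000030256, chr6:145803969-145811430 of GRCm39, - strand), a repressor also known as DEC2 that takes part in the circadian clock and in the self-renewal of macrophages, was the factor with the largest fall. It was at 182, 167 and 163 CPM in WT M0 and at 55.4, 47.4 and 60.5 CPM in WT M2, and at 211, 191 and 181 CPM in KO M0 and 46.1, 55.3 and 59.2 CPM in KO M2. Every M2 library lay below every M0 library. The log2 fold change was -1.64 ± 0.09 in WT (edgeR, adjusted p = 4.3e-09) and -1.86 ± 0.10 in KO (adjusted p = 2.3e-08). The integrin gene Itga6 had the nearest pattern (0.126 log2 units), with mean levels of 359 CPM in WT M0 and 101 CPM in WT M2. Bhlhe40, its close relative DEC1, moved the other way. Bhlhe40 was at 7.87, 5.67 and 6.38 CPM in WT M0 and at 736, 674 and 821 CPM in WT M2, a rise of 6.825 ± 0.12 on the log2 scale, and it rose by 6.39 ± 0.15 in KO. Bhlhe40 stood in a list of 8 STAT and IL-4 regulators of which 2 were called higher and 4 lower in WT, and 2 higher and 3 lower in KO. Stat5a rose (0.71 ± 0.10 in WT), and Stat4 and Stat2, which transmit interleukin-12 and interferon signals, fell (-1.82 ± 0.20 and -1.16 ± 0.08). Stat6 itself was at mean levels of 140, 136, 136 and 135 CPM in WT M0, KO M0, WT M2 and KO M2.

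Batf3 (ENSMUSG00000026630, chr1:190830044-190841142 of GRCm39, + strand) and Batf (ENSMUSG00000034266, chr12:85733423-85755861, + strand) encode small bZIP factors that pair with JUN proteins and bind composite sites with IRF4 or IRF8. Batf3, which is best known from dendritic cells, was at 5.84, 3.61 and 5.47 CPM in WT M0 and at 26.4, 31.9 and 28.9 CPM in WT M2. The KO libraries were at 4.89, 5.32 and 6.16 CPM in M0 and at 32.5, 28.1 and 22.0 CPM in M2. The groups were apart in both genotypes, with a log2 fold change of 2.56 ± 0.15 in WT (edgeR, adjusted p = 1.4e-08) and 2.33 ± 0.17 in KO (adjusted p = 2.9e-07), and the closest pattern was that of Eno2, a glycolytic enzyme (0.166 log2 units). The summed level of 4 dendritic cell markers was also higher in M2, from 0.309 to 0.608 CPM in WT M0 and 0.497 to 0.950 CPM in KO M0 to 11.6 to 18.0 CPM in WT M2 and 10.1 to 13.1 CPM in KO M2. Of the 4, Flt3, Xcr1 and Cd209a were under 1 CPM in all 12 libraries, so this sum was nearly all Zbtb46, and its part in the rise of Batf3 was not tested.

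Batf did not follow Batf3. It was at 15.1, 14.9 and 18.4 CPM in WT M0 and at 11.5, 14.3 and 12.1 CPM in WT M2, groups that just failed to overlap. In KO the libraries were at 18.7, 15.6 and 18.7 CPM in M0 and at 15.5, 16.3 and 13.6 CPM in M2, where the groups overlapped. The log2 fold change was -0.35 ± 0.13 in WT (edgeR, adjusted p = 0.043) and -0.21 ± 0.13 in KO (adjusted p = 0.23). The call in WT was lost in DESeq2 (adjusted p = 0.11) and without WT M0 library 3, WT M2 library 1 or WT M2 library 3, with adjusted p between 0.023 and 0.18 over 13 alternatives. Its nearest pattern was that of Cfap68 (0.0744 log2 units).

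Atf3 (ENSMUSG00000026628, chr1:190902493-190950241 of GRCm39, - strand), a stress-induced bZIP factor that dampens inflammatory genes in macrophages, was at 184, 117 and 140 CPM in WT M0 and at 503, 465 and 531 CPM in WT M2. The KO libraries were at 118, 115 and 159 CPM in M0 and at 439, 449 and 464 CPM in M2. The rise was 1.78 ± 0.13 in WT (edgeR, adjusted p = 7e-08) and 1.79 ± 0.11 in KO (adjusted p = 7.5e-08), and no library of M0 reached M2. The closest pattern was that of Csf2rb2, a subunit of the interleukin-3 receptor (0.135 log2 units). Among 13 tested AP-1 and ATF relatives in WT, 6 were called higher and 4 lower. Fosl2 and Jund, which form AP-1 dimers, rose by 2.74 ± 0.12 and 1.25 ± 0.09, and Atf5 and Batf2 fell (-0.58 ± 0.11 and -0.53 ± 0.15). In KO 3 of 14 were called higher and 2 lower. Without KO M0 library 3, 5 of 13 were called higher in KO, with Fos (0.53 ± 0.10) and Junb (1.00 ± 0.12) added, and 2 lower.

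Cebpb (ENSMUSG00000056501, chr2:167530835-167532338 of GRCm39, + strand), a gene of 1 exon whose product drives Arg1 and other M2 genes, changed least among the factors that rose. It was at 353, 273 and 320 CPM in WT M0 and at 539, 555 and 595 CPM in WT M2, a log2 fold change of 0.84 ± 0.09 (edgeR, adjusted p = 2.6e-06). In KO it was at 352, 275 and 490 CPM in M0 and at 516, 537 and 498 CPM in M2. M0 library 3 of KO thus nearly reached the M2 level, and the rise was 0.47 ± 0.16 (adjusted p = 0.032), or 0.706 ± 0.11 without it (adjusted p = 0.00039). Of 6 fits that left out 1 KO library this was the only one that called Cebpb, and the change was 0.288 without KO M0 library 2. DESeq2 did not call it (adjusted p = 0.14), and over 13 alternatives the adjusted p ran from 9.2e-07 to 0.14. The nearest pattern was that of Id2, an inhibitor of helix-loop-helix factors (0.0765 log2 units). Its relative Cebpa, a myeloid lineage factor, rose by 1.25 ± 0.09 in WT and 1.11 ± 0.10 in KO, and Cebpg, a dimer partner, by 0.42 ± 0.08 in WT and 0.42 ± 0.08 in KO, while Cebpd was called in KO (-0.35 ± 0.09) and not in WT (-0.19 ± 0.12), with no called difference between the genotypes (edgeR interaction, adjusted p = 0.83). Of 3 tested relatives, 2 were called higher and none lower in WT, and 2 higher and 1 lower in KO.

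Pparg (ENSMUSG00000000440, chr6:115337675-115468268 of GRCm39, + strand) was at 22.2, 16.0 and 22.3 CPM in WT M0 and at 89.4, 86.3 and 71.3 CPM in WT M2. In KO it was at 14.4, 14 and 14.7 CPM in M0 and at 89.1, 96.0 and 80.7 CPM in M2. The M2 libraries of the genotypes overlapped, whereas each KO M0 library lay below each WT M0 library. The log2 fold change with IL-4 was 2.04 ± 0.12 in WT (edgeR, adjusted p = 1.5e-08) and 2.63 ± 0.10 in KO (adjusted p = 9.6e-10). The ubiquitin ligase gene Cblb had the closest pattern (0.189 log2 units). Of 6 tested PPAR and RXR genes and coactivators, Ppargc1b, a coactivator of mitochondrial genes, was called higher in WT (2.11 ± 0.14) and Rxra, the dimer partner of Pparg, lower (-0.44 ± 0.07). In KO 2 were called higher and 2 lower, or 1 higher and 2 lower without KO M0 library 3, where Nr1h3, an oxysterol receptor, was not called (adjusted p = 0.071). Of 7 tested PPARG target genes, 6 were called higher and 1 lower in WT, and 4 higher and 1 lower in KO. In KO without M0 library 3 there were 3 higher and 1 lower, and Fabp4, a fatty acid carrier, was not called (0.335 ± 0.15, adjusted p = 0.13). Lpl, lipoprotein lipase, rose by 3.13 ± 0.10 in WT and 3.26 ± 0.10 in KO, and Abcg1, a cholesterol exporter, by 1.88 ± 0.34 and 3.05 ± 0.13, with 208, 47.9 and 98.8 CPM in the WT M0 libraries. Cpt1a, which brings fatty acids into mitochondria, fell in both genotypes (-0.46 ± 0.09 in WT, -0.56 ± 0.08 in KO). The median log2 fold change of the targets was 0.983 in WT and 0.425 in KO. No PPARG target was called in the difference between the changes with IL-4.

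**Figure D3:**
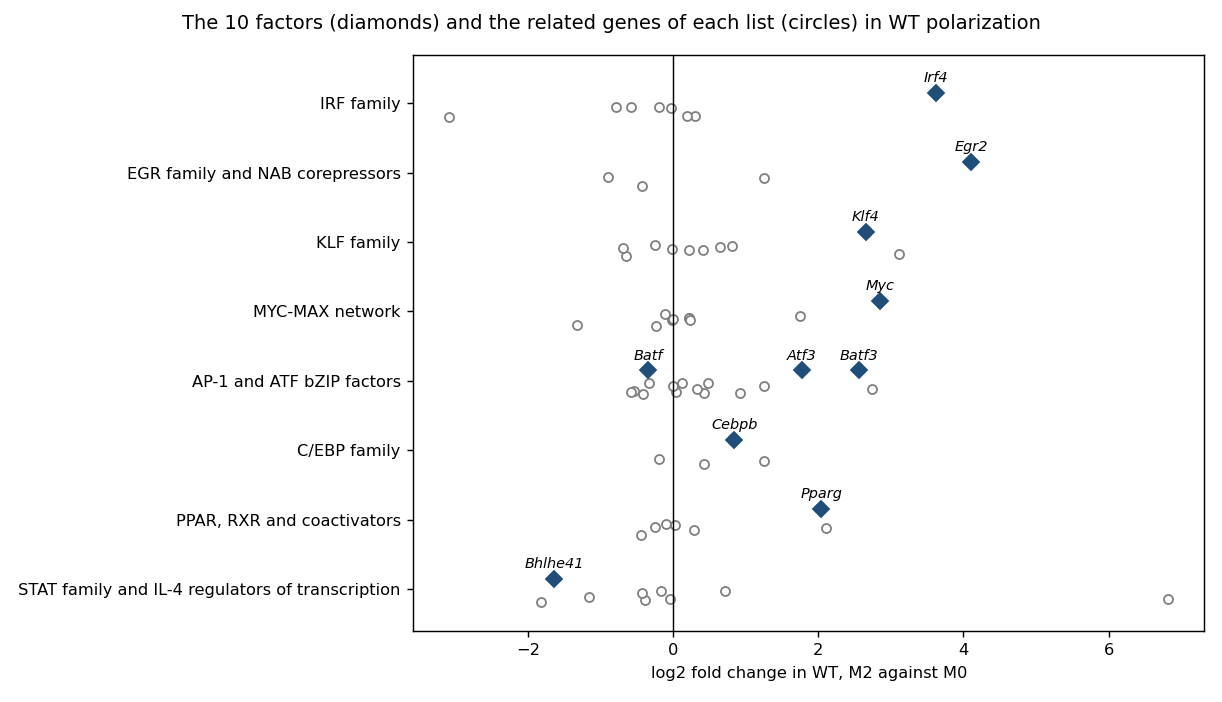
Log2 fold change of M2 against M0 in WT for the 10 factors (filled diamonds) and the tested genes of the list each belongs with (open circles, shifted up or down only to separate them). Irf4, Egr2 and Myc lay to the right of all tested relatives, and the circles furthest to the right in the KLF, AP-1 and STAT lists are Klf9 at 3.11, Fosl2 at 2.74 and Bhlhe40 at 6.825.

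The relatives of each factor were also described by the median log2 fold change over the genes tested. In WT and KO it was -0.426 and -1.03 for the EGR family with its corepressors, 0.222 and -0.0668 for the KLF family, and 0.00236 and 0.0937 for the MYC-MAX network. It was 0.116 and -0.0578 for the AP-1 and ATF factors, 0.419 and 0.422 for the C/EBP family, -0.0393 and -0.0985 for the PPAR and RXR genes, and -0.28 and -0.283 for the STAT list. The macrophage lineage factors had medians of 0.244 and 0.327.

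The KO median of the EGR list turned from -1.03 to 1.13 without KO M0 library 3, where Egr1 was at 1.89, and that of the AP-1 and ATF list from -0.0578 to 0.0505. The other KO medians kept their sign, at -0.151 for the IRF family, -0.0407 for the KLF family, 0.0993 for the MYC-MAX network, 0.381 for the C/EBP family, -0.0779 for the PPAR and RXR genes and -0.214 for the STAT list. They were 0.335 for the PPARG targets, 0.0648 for the MYC targets and 0.341 for the lineage factors.

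The markers of alternative activation changed with the factors. All 4 were called higher in both genotypes. Retnla was at 0 CPM in the 6 M0 libraries and at 388, 472 and 430 CPM in WT M2. Chil3 was at 0.381, 0 and 0 CPM in WT M0 and at 1719, 1801 and 1687 CPM in WT M2. These M0 levels leave no fold change to compute with any precision. Of 7 factors of the macrophage lineage, 3 were called higher and 1 lower in WT, and 4 higher and 1 lower in KO. Mitf and Tfec, related factors of lysosome and osteoclast genes, rose by 0.99 ± 0.06 and 0.91 ± 0.08 in WT, and Maf, a factor of resident macrophages, fell (-1.74 ± 0.08).

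The comparison of KO with WT addressed whether the deletion of miR-210 shifts these factors before or after IL-4. In M0, none of the 10 was called by edgeR, 2 had an unadjusted p under 0.05, and DESeq2 called none of them either. Over all 14089 genes 0.461% were called in that comparison and 10% had an unadjusted p under 0.05. The 2 factors were Myc and Pparg, and each had its 3 KO libraries on 1 side of the 3 WT libraries given above. Myc was higher in KO by 0.90 ± 0.24 on the log2 scale (edgeR, adjusted p = 0.18) and by 0.738 ± 0.262 without KO M0 library 3 (adjusted p = 0.46). Pparg was lower, with a log2 fold change of -0.48 ± 0.14 (adjusted p = 0.23), and -0.504 ± 0.171 without KO M0 library 3. Leaving out WT M0 library 2, the lowest WT library for Pparg, gave -0.619 ± 0.129 and a call (adjusted p = 0.026), and the adjusted p ran from 0.026 to 0.67 over 13 alternatives. With no filter on low counts, Myc, Pparg and Egr2 were called. All 10 factors also pass the main filter, so this setting only adds other genes to the fit. The log2 fold changes stayed close to those of the main fit, at 0.912 ± 0.226, -0.476 ± 0.144 and 0.494 ± 0.118. The SE of Egr2 was 0.247 in the main fit.

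The other 8 factors differed by less, or spread more, in M0. Egr2 (log2 fold change 0.49 ± 0.25), Cebpb (0.24 ± 0.17) and Klf4 (-0.30 ± 0.29) depended most on whether KO M0 library 3 was included. In that library 8 of the 10 factors had the highest of their 3 KO values. Without it, the difference was smaller for Egr2 (0.091 ± 0.172) and Cebpb (-0.009 ± 0.137) and larger for Klf4 (-0.709 ± 0.26), and none of them was called. Egr1 and Fos, the early response genes named above, were high in the same library, and their part in these differences was not tested. Egr1 was called lower in KO without that library (-2.64 ± 0.27, adjusted p = 0.001) and not with it (2.24 ± 1.2). Irf4 (-0.53 ± 0.25), Bhlhe41 (0.19 ± 0.09), Atf3 (-0.16 ± 0.16), Batf3 (0.14 ± 0.23) and Batf (0.12 ± 0.13) had overlapping groups, and their differences without KO M0 library 3 were -0.381, 0.237, -0.331, 0.046 and 0.075.

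**Figure D4:**
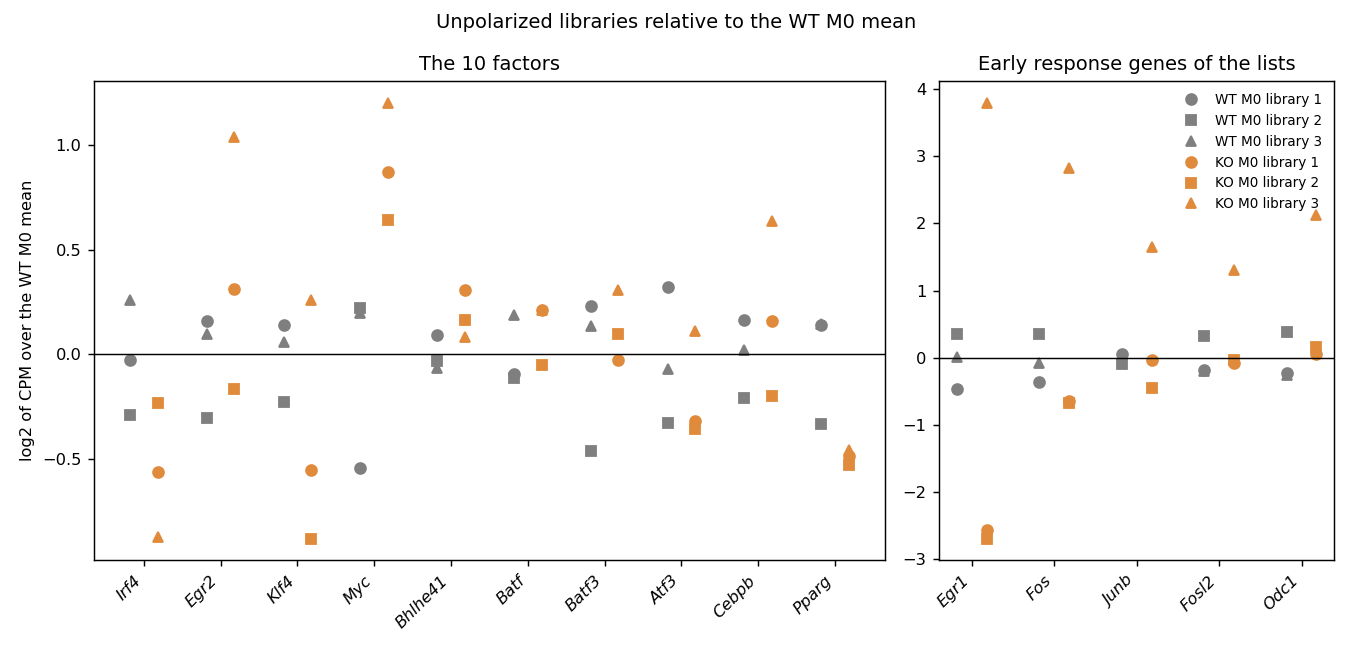
Level of the 10 factors (left) and of 5 early response genes from the lists (right, with an axis of its own) in each of the 6 M0 libraries, as log2 of CPM over the mean of the 3 WT M0 libraries. KO M0 library 3 (orange triangles) was the highest KO library for 8 of the 10 factors and for all 5 genes on the right, while the 3 KO values of Pparg lay together at 14 to 14.7 CPM.

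In M2, none of the 10 was called by edgeR, against 0.98% of 13980 genes, and DESeq2 called none of them. Of the 10, 4 had an unadjusted p under 0.05, against 10.7% of all genes. The 4 were lower in KO, namely Egr2 (log2 fold change -0.16 ± 0.06, adjusted p = 0.26), Atf3 (-0.14 ± 0.06, adjusted p = 0.34), Irf4 (-0.31 ± 0.13, adjusted p = 0.38) and Cebpb (-0.12 ± 0.05, adjusted p = 0.45). For Egr2, Atf3 and Cebpb each KO library lay below each WT library, and for Irf4 the groups overlapped. Klf4 (-0.10 ± 0.09), Batf3 (-0.07 ± 0.12), Myc (-0.07 ± 0.13) and Bhlhe41 (-0.01 ± 0.10) had log2 fold changes below 0, and Batf (0.26 ± 0.12, adjusted p = 0.47) and Pparg (0.11 ± 0.09, adjusted p = 0.73) above 0, with no call for any of these 6. The median size of the differences was 0.114 log2 units over the 10 factors and 0.0914 over all genes, against 0.272 and 0.119 in M0, where it was 0.284 over the 10 factors without KO M0 library 3.

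**Figure D5:**
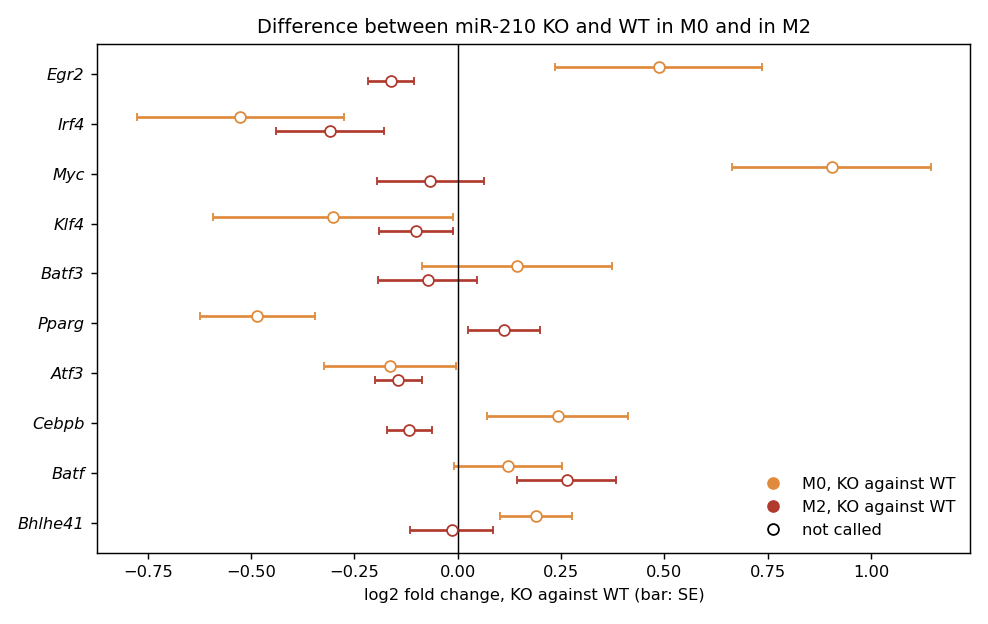
Difference of the 10 factors between KO and WT as log2 fold change in M0 (orange) and in M2 (red), with the SE as a bar. All circles are open because no factor was called, and the M0 differences, from -0.53 to 0.90, spanned a wider range than those in M2, from -0.31 to 0.26.

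Among the lists of related genes, 2 genes were called between the genotypes in M0 and 1 in M2. Arg1 was higher in KO M0 (log2 fold change 0.85 ± 0.15, adjusted p = 0.034), at 72.9, 62.9 and 84.7 CPM against 50.6, 37.9 and 34.4 CPM in WT M0, and Lpl was lower (-0.50 ± 0.09, adjusted p = 0.042), at 194, 201 and 162 CPM against 267, 259 and 264 CPM. Neither was called without KO M0 library 3 (adjusted p = 0.13 and 0.16), where the differences were 0.73 ± 0.15 and -0.415 ± 0.096. In M2, Maf was higher in KO (0.29 ± 0.06, adjusted p = 0.019), at 416, 389 and 407 CPM against 343, 340 and 313 CPM in WT M2. Chil3 was lower in KO M2 (-0.24 ± 0.05, edgeR adjusted p = 0.018), at 1459, 1466 and 1459 CPM against 1719, 1801 and 1687 CPM. It was not called because this change is under the fold limit. The other activation markers were not called in M2 either, with Retnla at -0.18, Arg1 at 0.04 and Mrc1 at 0.22.

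Whether the change with IL-4 itself differed between the genotypes was tested with an interaction term over all 12 libraries, which shares its libraries with the comparisons above. In edgeR 0% of 14825 genes and none of the 10 factors was called, 1327 genes (8.95%) and 3 factors had an unadjusted p under 0.05, and DESeq2 called 92 genes and none of the factors. The 3 were Myc, with a smaller rise in KO (difference of log2 fold changes -0.97 ± 0.27, edgeR adjusted p = 0.23), Pparg, with a larger rise (0.59 ± 0.17, adjusted p = 0.25), and Egr2, with a smaller rise (-0.65 ± 0.27, adjusted p = 0.46). Without KO M0 library 3 these differences were -0.81 ± 0.284 for Myc, 0.598 ± 0.19 for Pparg and -0.268 ± 0.173 for Egr2. Without KO M0 library 2 they were -1.102 ± 0.28, 0.562 ± 0.186 and -0.906 ± 0.2 (edgeR adjusted p = 0.08, 0.16 and 0.055). Cebpb was then at -0.548 ± 0.154 (edgeR adjusted p = 0.1). With all 12 libraries, for Irf4 (0.21 ± 0.30), Klf4 (0.19 ± 0.27), Batf3 (-0.23 ± 0.26), Bhlhe41 (-0.21 ± 0.14), Batf (0.14 ± 0.18), Atf3 (0.02 ± 0.19) and Cebpb (-0.36 ± 0.20) the difference was within 2 SE of no difference. Without KO M0 library 3 it was 0.593 ± 0.223 for Klf4, more than 2 SE from no difference (edgeR unadjusted p = 0.017, adjusted p = 0.5). For the others it was then -0.124 for Cebpb, 0.053 for Irf4, -0.14 for Batf3, -0.269 for Bhlhe41, 0.175 for Batf and 0.17 for Atf3. None of the 10 factors was called. Of the list genes, Egr1 alone was then called in the interaction (2.33 ± 0.35, edgeR adjusted p = 0.044). With that library it was at -2.54 ± 1.5 (adjusted p = 0.66).

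The deleted miRNA, miR-210-3p, pairs with target transcripts mainly through its seed, bases 2 to 8, which are shown in capitals in its RefSeq sequence.
miR-210-3p: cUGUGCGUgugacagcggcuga
The matching letters ACGCACA were found in the longest annotated 3' untranslated region of 881 of 20973 genes (4.2%), and among the 10 factors in that of Bhlhe41 alone, at 1 place.
Bhlhe41: aaaatagtggaACGCACActaaagtt
Bhlhe41 was higher in KO M0 by 0.19 ± 0.09 on the log2 scale (edgeR, adjusted p = 0.5), with overlapping libraries of 181 to 211 CPM in KO and 163 to 182 CPM in WT, and its difference in M2 was -0.01 ± 0.10 (adjusted p = 0.98). No difference of Bhlhe41 between the genotypes was therefore called in either state. The match is a count of letters and shows no regulation.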

How the data were processed

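Total RNA of macrophages was sequenced in 12 libraries, 3 for each of 4 groups, after removal of ribosomal RNA. To obtain the deposited counts, the authors trimmed reads with Trimmomatic, removed duplicates with Picard, aligned to GRCm39 with STAR and counted per gene and strand with featureCounts, with no normalization. The authors also deposited a normalized signal per gene, in which these counts are scaled by size factors estimated within each pair of groups and genes with fewer than 5 counts over the pair are missing. It served only as an alternative for levels. Columns name a group and a number from 1 to 3 that is not tied to a sample label.

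Symbols and coordinates came from GENCODE on GRCm39, which matched 56323 of 56941 identifiers. Levels are CPM with TMM scaling over 12 libraries, divided by merged exon length where genes are compared. Each pair of groups was compared by edgeR 4.0.16 (R 4.3.3) with its quasi-likelihood test after filterByExpr, across all genes, with Benjamini-Hochberg adjustment. The interaction used 12 libraries and no fold limit. DESeq2 1.42.0, other scalings and filters, a block by library number, a joint fit and leaving out each library were alternatives. SE is the log2 fold change over the root of F. On counts simulated for WT polarization over 14057 genes, edgeR called 90% and DESeq2 81.5% of 200 genes changed by 1 on the log2 scale, and 6.25% and 4.68% of their calls were unchanged genes. For the interaction over 14552 genes they called 69.5% and 68.5%, with 2.11% and 4.2% unchanged. Apart from the 200 changed genes, each simulated gene had 1 mean over all libraries, so no other change with IL-4 and no outlying library was built in. These rates may therefore not hold for factors with low M0 counts or large changes with IL-4. The genotype comparisons were not simulated. Replicate libraries differed by 1.89 to 9.85 chi-square units per gene, more than counting error gives, and each was kept as 1 sample. Depth limits low genes, since a count of 0 allows up to 3 counts, and this covers counting error only.

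The 10 factors and the lists of related genes were chosen with earlier results of these data known. Genes named beside the 10 are, for each list, the 2 called genes with the largest rise and the 2 with the largest fall in WT with an average count over 10, list genes called between genotypes, and the gene nearest in pattern to each factor. Egr1, Fos, Junb, Odc1, Klf6, Klf11, Irf1, Irf9, Mlxip, Mxi1, Nr1h3, Fabp4, Cebpd, Stat6, Mrc1 and Zbtb46 were named after their values were seen. Ddit3 was left out because its symbol has more than 1 identifier. Another 2 list genes are not reported here, and the counts of their lists leave them out. Of the 10 factors, 7 overlap a gene on the other strand, which strand-specific counting keeps apart. Promoters and mature miRNA are RefSeq sequences, the former of GRCm38.p6, with no coordinates converted.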

Additional observations from a re-analysis of the deposited data

Results flagged for a closer look

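The change with IL-4 differed between WT and KO at an unadjusted p under 0.05 in the interaction term for 3 of the 10 factors, and for none of them after adjustment over 14825 genes. Myc rose less in KO, by a difference of log2 fold changes of -0.9683 (SE 0.27, edgeR unadjusted p = 0.0027, adjusted p = 0.23). Pparg rose more in KO, by 0.5901 (SE 0.17, edgeR unadjusted p = 0.0033, adjusted p = 0.25). Egr2 rose less in KO, by -0.6534 (SE 0.27, edgeR unadjusted p = 0.027, adjusted p = 0.46), and by -0.268 (unadjusted p = 0.14) without KO M0 library 3, in which Egr1 and Fos were also high. Their part in the value of Egr2 was not tested. Without that library Klf4 rose more in KO, by 0.593 (SE 0.223, edgeR unadjusted p = 0.017, adjusted p = 0.5). Without KO M0 library 2 the difference of Egr2 was larger, at -0.906 (SE 0.2, edgeR unadjusted p = 0.00033, adjusted p = 0.055).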

How the results depend on the processing

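In WT polarization 8 to 10 of the 10 factors were called under the alternatives run, and in KO 8 or 9. The calls that were lost were those of Batf in WT and Cebpb in KO, as given above, and those of Batf and Cebpb where a log2 fold change of 1 was required. Under that limit 2042 genes were called in WT polarization, 1800 in KO polarization, 27 between genotypes in M0 and 40 in M2, because fewer genes pass it. Dropping the filter on low counts called 3 factors between genotypes in M0 (Myc, Egr2 and Pparg), 1 in M2 (Irf4) and 4 in the interaction (Myc, Egr2, Cebpb and Pparg), and 532, 360 and 341 genes in all. DESeq2 called 218 genes in M0 and 92 in the interaction. The joint fit of 12 libraries called 248 genes in M0 and 60 in M2. The cause of these shifts was not tested.

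Leaving out 1 library at a time gave 0 to 1 factors and 20 to 302 genes called in M0, 53 to 215 genes in M2, and 0 to 1 factors and 0 to 77 genes in the interaction. The 1 factor was Pparg, without WT M0 replicate 2 (0.724 in the interaction, adjusted p = 0.048, within 0.015 to 0.5 over 18 alternatives). The most genes in the interaction were called without KO M0 replicate 2. The numbers 1 to 3 share only a number between groups. The deviations of same-numbered libraries correlated with r between -0.268 and 0.336, and a replicate block by that number called 284 genes in M0, 289 in M2 and no further factor, while Batf lost its call in WT. Among the factors, no called result changed its direction. The list gene Egr1 did change direction, and was called only without KO M0 replicate 3. Its log2 fold change went from -2.97 to 1.89 in KO polarization and from 2.24 to -2.64 between genotypes in M0. In the interaction its value went from -2.54 to 2.33.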
